A study of Mus musculus with 12 samples.

Results

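The suppressor of cytokine signaling (SOCS) family was followed through CD4+ T cells with and without the gene for soluble adenylyl cyclase. They were cultured in a baseline medium or in that medium plus Th17-polarizing cytokines. The family was taken as the genes listed as Cish and Socs1 to Socs7, which are 8 of the 23991 gene names in each expression file. All 8 passed the filter on low values that left 10126 genes to test (at least 1 FPKM in at least 3 libraries).

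SOCS proteins are the classical brake on JAK-STAT signaling. A cytokine receptor activates its JAK kinases, the kinases activate STAT transcription factors, and the STATs switch on SOCS genes whose products return to the receptor or the kinase and shut the signal down. Each member carries an SH2 domain that docks on phosphorylated tyrosines and a SOCS box that recruits a ubiquitin ligase, and SOCS1 and SOCS3 also carry a short region that blocks the kinase itself. In CD4+ T cells, SOCS3 is known for restraining the IL-6 and IL-23 signal through STAT3, which drives the Th17 fate, SOCS1 for restraining interferon and common gamma chain signals, and CIS, the product of Cish, for responding to IL-2 through STAT5.

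Splenic or lymph node cells of male C57BL/6 mice, 8 to 10 weeks old, were depleted of other cell types on magnetic beads to leave CD4+ T cells. Culture lasted 18 hours on anti-CD3 coated at 10 µg/mL, and the listed additions are anti-CD28 at 2 µg/mL, the cytokines IL-1β at 20 ng/mL, IL-6 at 25 ng/mL and IL-23 at 20 ng/mL, and blocking antibodies to IL-4 and interferon-γ at 1 µg/mL. The labels name a baseline medium and the same medium plus polarizing cytokines, but do not say which of these additions each medium held. Sample titles carry the word Th17 for both media. Polyadenylated RNA was sequenced from 12 libraries in 4 groups of 3, which were Adcy10-/- cells with polarizing cytokines, WT cells with polarizing cytokines, Adcy10-/- cells in baseline medium and WT cells in baseline medium. Adcy10-/- mice have no intact copy of the gene for soluble adenylyl cyclase, an enzyme that makes cAMP, and the series asks what its loss does during Th17 differentiation. Nothing in the labels ties replicates to separate mice or cultures, so p-values measure only the spread between these libraries, which may be technical.

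The deposited values are FPKM, fragments per kilobase of transcript scaled to the mapped fragments of the library, so levels of different genes can be compared per unit of transcript length. Summed FPKM per library was 547870 to 594750, and 9778 to 9925 genes reached 1 FPKM. Read depth is unknown in absolute terms. From the spacing of low values, relative depth ran between 0.731 and 1.02 times that of WT baseline replicate 1. The 7 CD4 T cell markers were all present (Cd3e at 169 to 260 FPKM, Cd4 at 119 to 179 FPKM), and Cd8a was at 0.0673 to 2.52 FPKM. Adcy10 is listed at 0 FPKM in all 12 libraries, WT included, so it gives no check of the genotype labels.

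The family fell into 3 tiers of abundance. Cish, Socs1 and Socs3 made up most of it, ranking 934, 1089 and 1756 among the 10126 tested genes by mean FPKM over the 12 libraries. Socs2 ranked 4466, and Socs4, Socs7, Socs6 and Socs5 ranked 7078, 7104, 7342 and 8386. Over the 12 libraries the mean level was 89.9 FPKM for Cish, 77.8 for Socs1, 49.0 for Socs3, 14.4 for Socs2, 5.36 for Socs4, 5.28 for Socs7, 4.80 for Socs6 and 2.91 for Socs5. The order of the means at the top was not the same in both media, which for Socs1 and Cish rested on replicate 1. With cytokines the highest mean was that of Socs1, but the ranges of Socs1 and Cish overlapped, and so did those of Cish and Socs3, in both genotypes. Socs1 exceeded Cish only in replicate 1 of each cytokine group, at a ratio of 1.25 in Adcy10-/- and 1.21 in WT cells. In replicates 2 and 3 the ratio was 0.997 and 0.959 in Adcy10-/- cells and 0.998 and 0.867 in WT cells. In baseline medium Cish was above Socs1, Socs1 above Socs3 and Socs3 above Socs2, with no overlap between neighbours in either genotype. In all 4 groups Socs2 stood apart from its neighbours, Socs5 was the lowest, and Socs4 and Socs7 overlapped. Socs6 overlapped Socs7 in both cytokine groups and in Adcy10-/- baseline cells, and lay below Socs7 without overlap in WT baseline cells.

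**Figure D1:**
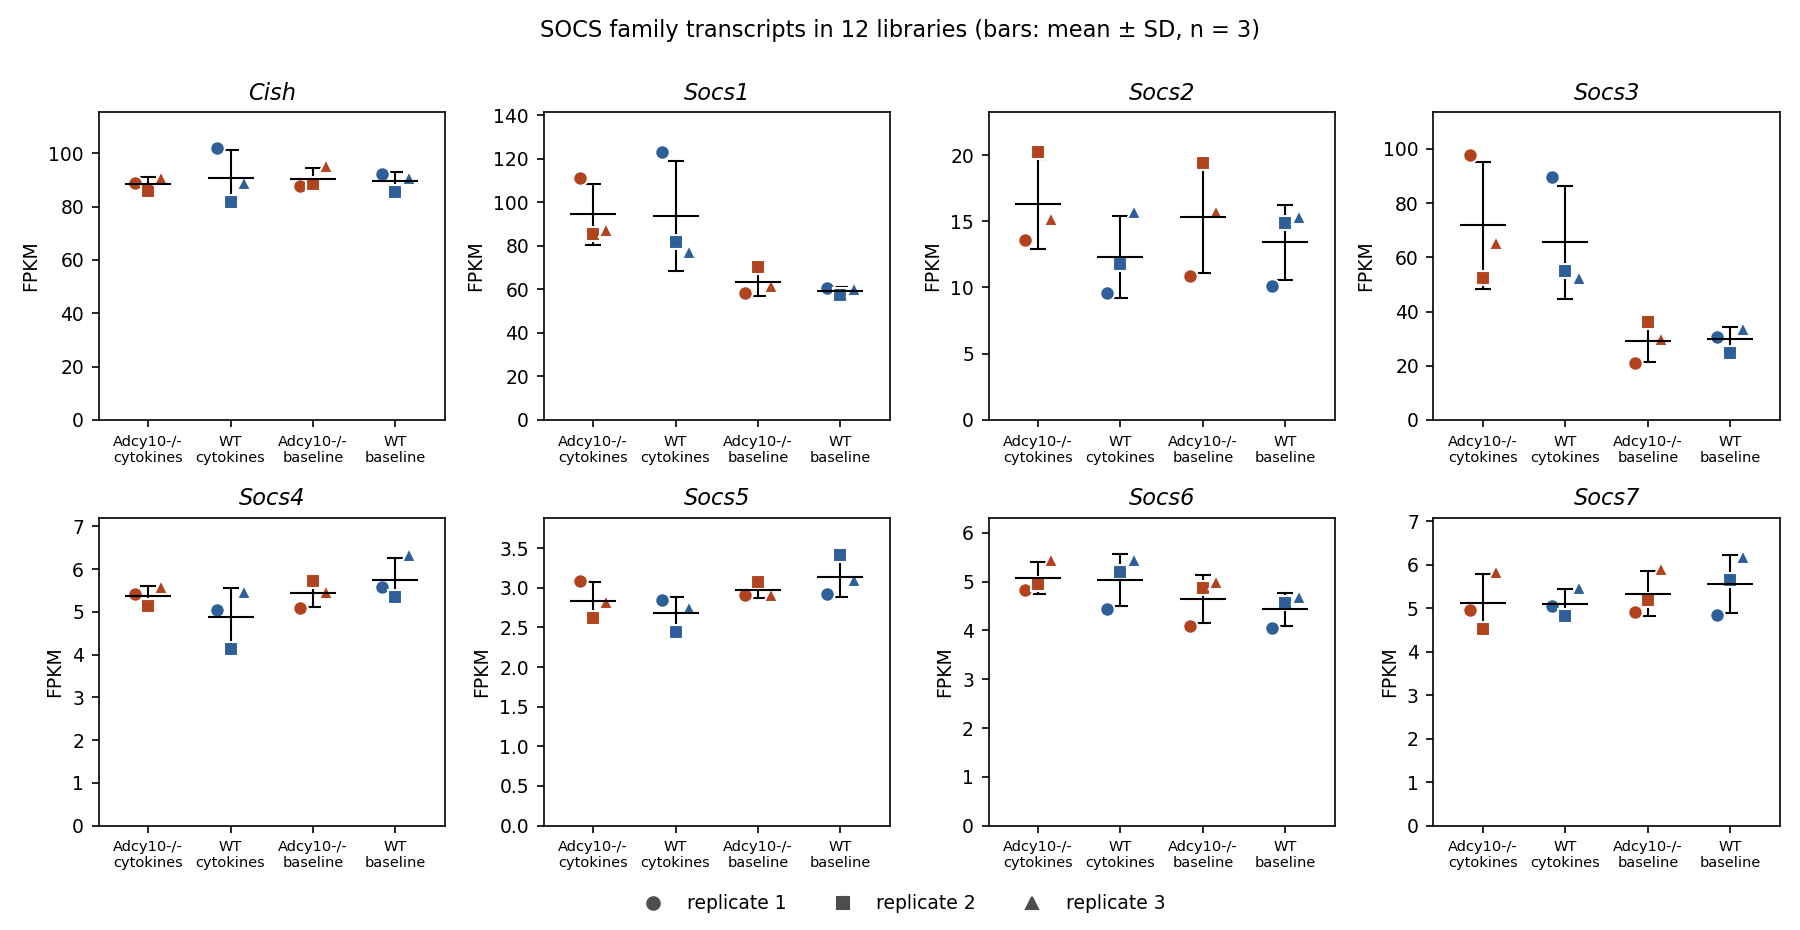
FPKM of each of the 8 SOCS family genes (linear axes from 0, 1 panel a gene) in the 12 libraries, with 1 point a library, its shape giving the replicate number, and black bars for the mean ± SD of 3. Socs1 and Socs3 lie higher in both cytokine groups than in both baseline groups, while Cish lies between 81.9 and 102 FPKM throughout.

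Socs3, whose product binds the IL-6 receptor subunit gp130 and stops JAK signaling there, showed the largest difference in the family. Its level was 97.6, 52.3 and 65.4 FPKM in Adcy10-/- cells with cytokines (replicates 1, 2 and 3), against 21.1, 36.3 and 30.0 FPKM in Adcy10-/- cells in baseline medium. All 3 cytokine libraries were above all 3 baseline libraries, and replicate 1 was both the highest with cytokines and the lowest at baseline. In WT cells Socs3 was at 89.5, 54.9 and 52.2 FPKM with cytokines, against 30.7, 24.8 and 33.7 FPKM in baseline medium. The WT groups did not overlap either, and replicate 1 was again well above the other cytokine libraries. Group means were 71.8 ± 23.3 and 29.1 ± 7.64 FPKM in Adcy10-/- cells with cytokines and at baseline, and 65.5 ± 20.8 and 29.7 ± 4.49 FPKM in WT cells with cytokines and at baseline (SD, n = 3 each). As in any bulk sample, more RNA per cell and more cells that express the gene cannot be told apart.

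Socs3 rose with cytokines in both genotypes. On the log2(FPKM + 1) scale the difference was 1.26 ± 0.26 in Adcy10-/- cells (SE; adjusted p = 0.0204, limma with Benjamini-Hochberg adjustment over all 10126 genes), a 2.39-fold difference with a 95% interval of 1.60 to 3.57. In WT cells it was 1.08 ± 0.26 (limma, adjusted p = 0.0397), a 2.12-fold difference with an interval of 1.42 to 3.15. Within each replicate number the ratio of FPKM with cytokines to FPKM at baseline was above 1 in 3 of 3 pairs in both genotypes. It was 4.63, 1.44 and 2.18 in Adcy10-/- cells and 2.91, 2.21 and 1.55 in WT cells. Replicate 1 gave the highest ratio in both genotypes. Without the 4 libraries numbered 1 the log2 difference was 0.81 in Adcy10-/- cells (interval 0.46 to 1.15, limma adjusted p = 0.0332) and 0.87 in WT cells (0.52 to 1.21, limma adjusted p = 0.0198).

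In fits without the replicate block the Socs3 call depended on single libraries, and its direction did not. In Adcy10-/- cells the limma adjusted p exceeded 0.05 when Adcy10-/- cytokine replicate 1 (0.0805) or 3 (0.0558), or Adcy10-/- baseline replicate 1 (0.0877) or 3 (0.0634), was left out. In WT cells it did so without WT cytokine replicate 1 (0.127) or 2 (0.0685), without WT baseline replicate 1 (0.0757), 2 (0.173) or 3 (0.0504), and without Adcy10-/- cytokine replicate 3 (0.0592) or Adcy10-/- baseline replicate 3 (0.0606). Without either of those Adcy10-/- libraries the WT log2 difference itself stayed at 1.08. With the replicate number as a block the adjusted p was 0.0119 in Adcy10-/- cells and 0.0208 in WT cells (limma).

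Socs1, whose product inhibits JAK1, JAK2 and TYK2 and is best known as the brake on interferon signaling, moved in the same direction by less. Its level was 111, 85.6 and 87.2 FPKM in Adcy10-/- cells with cytokines, against 58.2, 70.3 and 61.4 FPKM in Adcy10-/- baseline cells. In WT cells it was 123, 81.7 and 77.0 FPKM with cytokines, against 60.8, 57.4 and 60.1 FPKM at baseline. The groups did not overlap in either genotype, and the WT baseline libraries were close to each other whereas replicate 1 of each cytokine group stood above the rest. Group means with cytokines and at baseline were 94.5 ± 14.1 and 63.3 ± 6.26 FPKM in Adcy10-/- cells, and 93.9 ± 25.3 and 59.4 ± 1.77 FPKM in WT cells (SD, n = 3 each).

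Socs1 rose in WT cells, by 0.62 ± 0.16 on the log2(FPKM + 1) scale (SE; limma adjusted p = 0.0454), a 1.54-fold difference with a 95% interval of 1.21 to 1.95. In Adcy10-/- cells the difference was 0.57 ± 0.16 (1.48-fold, interval 1.17 to 1.88) and missed the threshold, with a limma adjusted p of 0.0691. It passed there with the replicate number as a block (limma adjusted p = 0.0239, and 0.0145 in WT cells). The ratio of FPKM with cytokines to baseline was 1.90, 1.22 and 1.42 in Adcy10-/- cells and 2.02, 1.42 and 1.28 in WT cells, with replicate 1 the highest in each genotype. Without the 4 libraries numbered 1 the log2 difference was 0.39 in Adcy10-/- cells (interval 0.23 to 0.55, limma adjusted p = 0.0304) and 0.43 in WT cells (0.26 to 0.59, limma adjusted p = 0.0173). Leaving out 1 library at a time, the WT call held in 3 of 12 fits, those without Adcy10-/- cytokine replicate 1 (0.0379), Adcy10-/- baseline replicate 1 (0.0479) or WT cytokine replicate 3 (0.0341), and the highest limma adjusted p, without WT baseline replicate 2, was 0.168. The WT log2 value stayed between 0.41 and 0.75 in those fits, and was lowest without WT cytokine replicate 1. The Adcy10-/- difference passed in 1 of 12 such fits, the one without WT cytokine replicate 1 (limma adjusted p = 0.0105), and its log2 value stayed between 0.45 and 0.64.

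**Figure D2:**
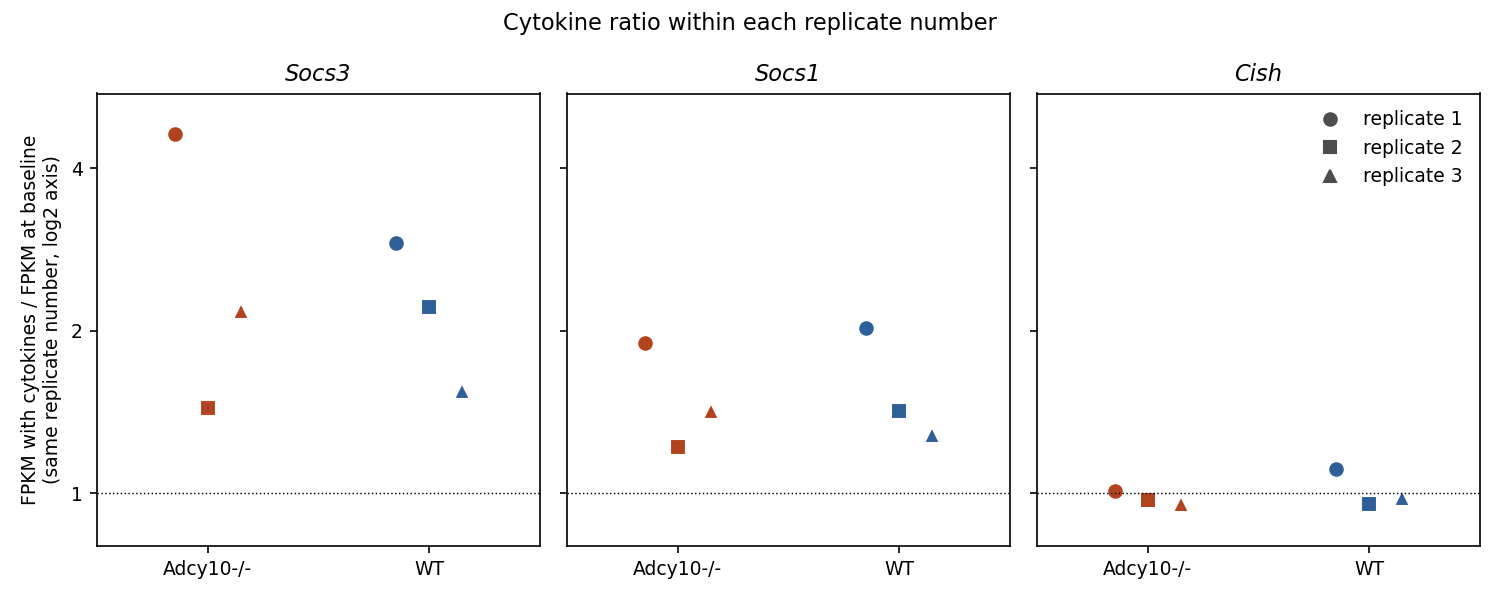
FPKM with cytokines divided by FPKM at baseline within each replicate number (log2 axis, 1 point a pair, shape by replicate number) for Socs3, Socs1 and Cish in Adcy10-/- and WT cells. The 12 ratios of Socs3 and Socs1 lie between 1.22 and 4.63 with replicate 1 at the top, and those of Cish lie between 0.957 and 1.11.

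Replicate 1 stood apart in summed B cell and CD4 T cell markers as well as in these ratios. All 5 B cell markers averaged at least 1 FPKM over the libraries, and their summed level was 1.82 to 7.29 FPKM in the 4 libraries numbered 1, against 21.6 to 47.3 FPKM in the 8 others. Summed CD4 T cell markers were at 1630 to 1820 FPKM in the libraries numbered 1 and 1420 to 1580 FPKM in the others. The sums of the other cell types overlapped between the libraries numbered 1 and the rest. For macrophages and monocytes they were 12.6 to 97.6 FPKM, against 14.6 to 39.8 FPKM in the rest. For neutrophils they were 0.52 to 10.4 FPKM, against 4.63 to 59.8 FPKM in the rest. Of the 5 macrophage and monocyte markers measured only Lyz2 averaged at least 1 FPKM. Their sum was 18.6 to 24.5 FPKM in Adcy10-/- cytokine cells and 26.1 to 97.6 FPKM in WT cytokine cells, against 12.6 to 17.3 FPKM in Adcy10-/- baseline cells and 16.7 to 62.8 FPKM in WT baseline cells. The highest of these sums was in WT cytokine replicate 1, the library with the most Socs1 (123 FPKM). The next highest, 62.8 FPKM, was in WT baseline replicate 1, where Socs1 was at 60.8 FPKM. Adcy10-/- cytokine replicate 1, the library with the most Socs3, had Socs1 at 111 FPKM and a sum of at most 24.5 FPKM. Of the 3 neutrophil markers, S100a8 and S100a9 averaged at least 1 FPKM. The neutrophil sum was 0.705 to 15.3 FPKM in Adcy10-/- cytokine cells and 10.4 to 59.8 FPKM in WT cytokine cells, against 0.52 to 5.18 FPKM in Adcy10-/- baseline cells and 2.83 to 18.5 FPKM in WT baseline cells. The part of these cells in the Socs1 and Socs3 differences was not tested. The fits without the libraries numbered 1 are no such test. They keep the libraries with the higher B cell sums (21.6 to 47.3 FPKM) and the highest neutrophil sum (59.8 FPKM).

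Cish, the founding member of the family and a direct STAT5 target whose product docks on the IL-2 receptor, did not follow Socs1 and Socs3. Its level was 88.8, 85.8 and 90.9 FPKM in Adcy10-/- cells with cytokines, against 87.9, 88.4 and 95.1 FPKM at baseline. In WT cells it was 102, 81.9 and 88.9 FPKM with cytokines, against 92.2, 85.6 and 90.8 FPKM at baseline. The groups overlapped in both genotypes. The log2 difference was -0.03 in Adcy10-/- cells (95% interval -0.19 to 0.13, limma adjusted p = 0.936) and 0.02 in WT cells (-0.14 to 0.17, limma adjusted p = 0.940). In linear terms the intervals run from 0.878 to 1.09-fold and from 0.907 to 1.13-fold, so a cytokine difference as large as the lower bound of that of Socs3 or Socs1 lies outside the interval of Cish.

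The make-up of the family, read from FPKM within each library, differed between media accordingly. These shares and ratios restate the levels of Cish, Socs1 and Socs3 given above and are no further result. The 8 genes summed to 329, 261 and 279 FPKM in Adcy10-/- cytokine cells and 341, 247 and 253 FPKM in WT cytokine cells, against 195, 233 and 221 FPKM in Adcy10-/- baseline cells and 211, 202 and 220 FPKM in WT baseline cells. Cish made up 27.0 to 35.2% of that sum in the 6 cytokine libraries and 37.9 to 45.1% in the 6 baseline libraries, without overlap. Socs3 made up 20.0 to 29.7% with cytokines and 10.8 to 15.6% at baseline, also without overlap. The ratio of Socs1 to Cish was 0.867 to 1.25 with cytokines and 0.646 to 0.795 at baseline, and that of Socs3 to Socs1 was 0.612 to 0.881 with cytokines and 0.362 to 0.560 at baseline.

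The start regions of these 3 genes are shown because the cytokine differences separate them and because the textbook binding sites of their inducers are short and can be read directly. The sequences are RefSeq's, build GRCm38.p6, from 250 bases before to 50 bases after the annotated start, 5′ to 3′ on the gene's strand. That build differs from the mm9 build of the expression files, and 4 of the 8 members (Cish, Socs1, Socs3 and Socs4) had an entry. In Socs3 (chr11:117969317-117969616, minus strand) and Cish (chr9:107296409-107296708, plus strand) capitals mark matches to TTCNNNGAA, the gamma-activated site that STAT dimers bind. In Socs1 (chr16:10785487-10785786, minus strand) they mark matches to GAAANNGAA, a repeat of the kind bound by interferon regulatory factors.
Socs3: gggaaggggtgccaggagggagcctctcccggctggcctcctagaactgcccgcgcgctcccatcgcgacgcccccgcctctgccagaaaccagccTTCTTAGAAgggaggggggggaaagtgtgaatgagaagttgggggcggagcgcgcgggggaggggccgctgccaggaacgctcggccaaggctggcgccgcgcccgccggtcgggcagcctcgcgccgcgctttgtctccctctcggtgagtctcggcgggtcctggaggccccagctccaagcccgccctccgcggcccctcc
Socs1: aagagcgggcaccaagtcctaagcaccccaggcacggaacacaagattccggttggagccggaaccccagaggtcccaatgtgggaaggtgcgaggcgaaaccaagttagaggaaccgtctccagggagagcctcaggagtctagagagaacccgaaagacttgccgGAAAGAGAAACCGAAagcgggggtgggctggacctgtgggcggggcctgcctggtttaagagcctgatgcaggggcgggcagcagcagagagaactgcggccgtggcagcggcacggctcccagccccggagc
Cish: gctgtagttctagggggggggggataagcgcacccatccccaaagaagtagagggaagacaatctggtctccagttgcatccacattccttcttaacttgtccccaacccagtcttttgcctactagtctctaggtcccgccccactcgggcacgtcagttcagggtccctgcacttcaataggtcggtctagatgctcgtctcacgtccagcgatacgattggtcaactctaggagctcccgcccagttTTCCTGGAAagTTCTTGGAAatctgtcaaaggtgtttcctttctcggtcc

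On either strand, TTCNNNGAA occurred once in the Socs3 window, at position -154 (counted back from the start site), and at 2 places in the Cish window, at positions 1 and 12 (counted from the start site). It occurred in neither the Socs1 nor the Socs4 window, and 8.30% of all 32851 RefSeq windows of this length held it. The stricter TTCCNGGAA, which is a subset of those matches, occurred at 1 of the Cish sites and in 1.15% of all windows. GAAANNGAA occurred at 2 overlapping places in Socs1, at positions -83 and -77, in none of the other 3 members and in 8.56% of all windows. The cAMP response element TGACGTCA, of interest because the deleted enzyme makes cAMP, occurred in none of the 4 windows and in 1.79% of all windows. Its core TGACG, which the full element contains, occurred once in Cish and once in Socs4, and in 20.8% of all windows. A match describes letters in the window and not binding in these cells.

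The other 5 members showed no cytokine difference that passed the test in either genotype. Socs2, whose product restrains growth hormone receptor signaling, was spread widely between replicates. It was at 13.6, 20.2 and 15.2 FPKM in Adcy10-/- cytokine cells and 9.61, 11.8 and 15.7 FPKM in WT cytokine cells, against 10.9, 19.4 and 15.7 FPKM in Adcy10-/- baseline cells and 10.1, 14.9 and 15.3 FPKM in WT baseline cells. All 4 groups overlapped, and replicate 1 was the lowest of each group. The log2 cytokine difference was 0.10 in Adcy10-/- cells (interval -0.40 to 0.61) and -0.12 in WT cells (-0.62 to 0.38). RefSeq places a long noncoding RNA, Gm33230, over Socs2 and another, Gm30510, over Socs5. The sources do not state whether counting used strand, so reads of those pairs cannot be separated.

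Socs4 and Socs5, close relatives with long N-terminal regions that have been tied to epidermal growth factor receptor turnover in human cells, were lower with cytokines in WT cells by less than the test could call. Socs5 was at 2.85, 2.44 and 2.74 FPKM in WT cytokine cells, against 2.92, 3.42 and 3.10 FPKM in WT baseline cells, without overlap. Its log2 difference was -0.17 ± 0.08 in WT cells (SE; limma adjusted p = 0.258) and -0.05 ± 0.08 in Adcy10-/- cells (limma adjusted p = 0.884), where the groups overlapped. Socs4 was at 5.04, 4.14 and 5.46 FPKM in WT cytokine cells, against 5.57, 5.35 and 6.32 FPKM in WT baseline cells. Each replicate number had less Socs4 with cytokines, but the ranges overlapped, and the log2 difference was -0.20 ± 0.09 (limma adjusted p = 0.256). In Adcy10-/- cells Socs4 was at 5.13 to 5.58 FPKM with cytokines and 5.10 to 5.73 FPKM at baseline, a log2 difference of -0.01 ± 0.09.

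Socs6 and Socs7, adaptor-like members known for binding insulin receptor substrates, were also near 5 FPKM throughout. Socs6 was at 4.82, 4.96 and 5.44 FPKM in Adcy10-/- cytokine cells, against 4.09, 4.87 and 4.99 FPKM in Adcy10-/- baseline cells, and at 4.43, 5.19 and 5.45 FPKM in WT cytokine cells, against 4.04, 4.57 and 4.68 FPKM in WT baseline cells. It was higher with cytokines in 3 of 3 replicate numbers in each genotype although the groups overlapped. The log2 differences were 0.11 ± 0.09 in Adcy10-/- cells (limma adjusted p = 0.698, or 0.261 with the replicate block) and 0.15 ± 0.09 in WT cells (0.423, or 0.0959 with the block). Socs7 ranged from 4.53 to 5.84 FPKM in Adcy10-/- cytokine cells and from 4.83 to 5.47 FPKM in WT cytokine cells, against 4.91 to 5.91 FPKM in Adcy10-/- baseline cells and 4.84 to 6.19 FPKM in WT baseline cells. Its log2 cytokine differences were -0.05 ± 0.10 in Adcy10-/- cells and -0.10 ± 0.10 in WT cells.

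**Figure D3:**
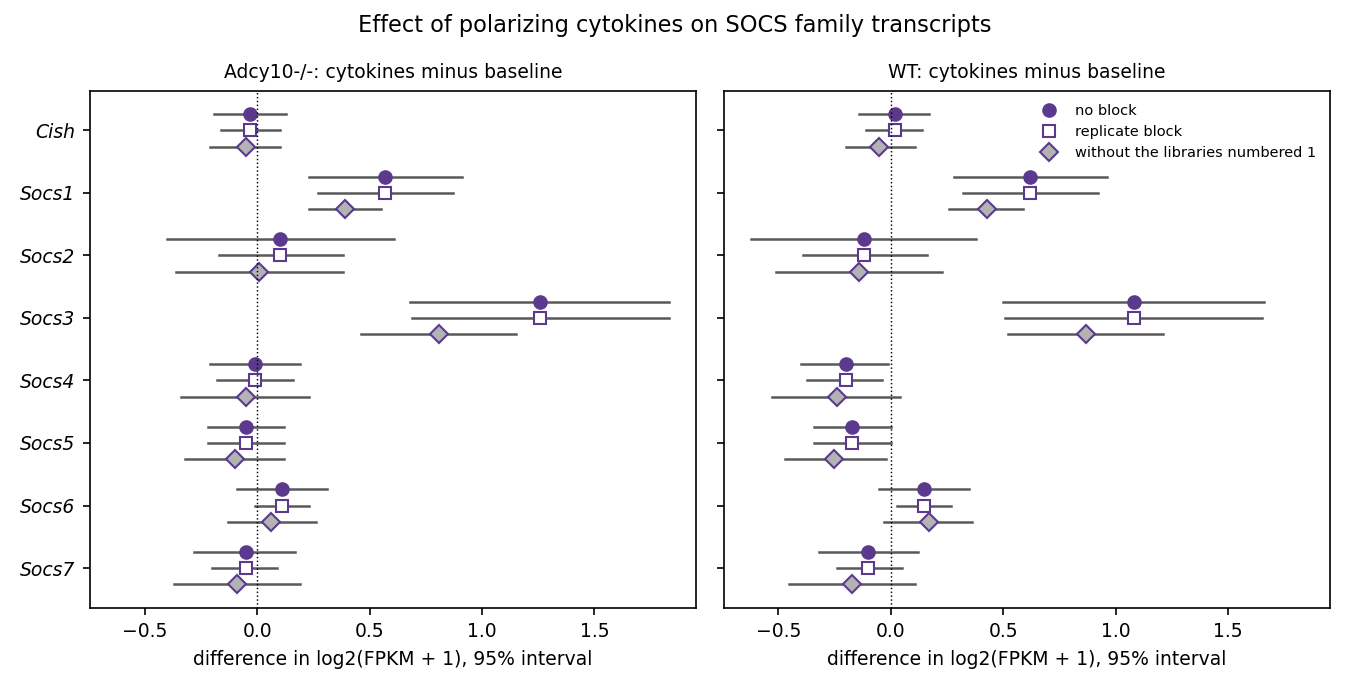
Difference in log2(FPKM + 1), cytokines minus baseline, with 95% limma intervals, for the 8 genes in Adcy10-/- cells (left) and WT cells (right), without and with the replicate block and without the 4 libraries numbered 1. The intervals of Socs3 and Socs1 lie above 0 in every fit drawn, and those of Cish include 0 in every fit drawn.

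Counted together, 1 of the 8 members passed in Adcy10-/- cells, against 4.27% of all tested genes, and 2 of 8 passed in WT cells, against 4.93%. With the replicate block it was 2 of 8 in each genotype, against 10.7% of all genes in Adcy10-/- cells and 14.8% in WT cells, and without the libraries numbered 1 it was again 2 of 8 in each, against 2.19% in Adcy10-/- cells and 3.74% in WT cells. The groups did not overlap for 2 members in Adcy10-/- cells, against 21.6% of genes, and for 3 in WT cells, against 20.8%. The median log2 difference of the members was 0.0465 in Adcy10-/- cells and -0.0404 in WT cells, against -0.0197 and -0.0126 over all tested genes in those genotypes. With 8 members these counts are no result about the family as a whole. In the main fit, without the block, the calls were those of Socs3 in both genotypes and Socs1 in WT cells. With the block, or without the libraries numbered 1, Socs1 was called in Adcy10-/- cells as well.

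Loss of Adcy10 was not accompanied by a called difference in any member. With cytokines 0 of 8 members passed, against 0% of all tested genes, and at baseline 0 of 8 passed, again against 0% (limma, Benjamini-Hochberg). At an unadjusted p under 0.05 there were 202 genes with cytokines and 118 at baseline, with 0 members among them in either medium. The groups overlapped for all 8 members in both media, while 5.08% of genes with cytokines and 4.99% at baseline did not overlap.

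The intervals of the genotype differences reflect only the spread between these libraries, which may be technical. They come from the fit without the replicate block and set no limit on a difference between mice. For Socs3 the log2 difference, Adcy10-/- minus WT, was 0.13 with cytokines (95% interval -0.45 to 0.70) and -0.05 at baseline (-0.63 to 0.52), with outer bounds of 1.63-fold with cytokines and 0.647-fold at baseline. For Socs1 it was 0.03 with cytokines (-0.31 to 0.37) and 0.09 at baseline (-0.26 to 0.43). Of these 3 genes Cish had the narrowest intervals, its difference being -0.03 with cytokines (-0.19 to 0.13) and 0.01 at baseline (-0.14 to 0.17). Every limma adjusted p was 1.00. The within-number ratios of Adcy10-/- to WT for Socs3 were 1.09, 0.953 and 1.26 with cytokines and 0.686, 1.46 and 0.892 at baseline, on both sides of 1 in each medium.

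The largest genotype difference among the members was in Socs2 with cytokines. Its mean was 16.3 ± 3.41 FPKM in Adcy10-/- cytokine cells and 12.3 ± 3.08 FPKM in WT cytokine cells (SD, n = 3 each), a log2 difference of 0.38 ± 0.23 (interval -0.12 to 0.89, limma unadjusted p = 0.120 and adjusted p = 1.00). The Adcy10-/- to WT ratios were 1.42, 1.72 and 0.969 with cytokines and 1.08, 1.30 and 1.02 at baseline, so 5 of 6 pairs were above 1 and 1 was just below. With the replicate block the cytokine interval was 0.11 to 0.66 (limma unadjusted p = 0.0113), but the adjusted p was 0.902. At baseline the log2 difference of Socs2 was 0.16 (-0.34 to 0.66). Averaged over both media it was 0.27 (-0.08 to 0.63), and 0 of 8 members and 0% of all genes passed.

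The cytokine differences themselves were compared between genotypes. The interaction, the cytokine effect in Adcy10-/- cells minus that in WT cells, was 0.18 for Socs3 (95% interval -0.64 to 0.99), -0.05 for Socs1 (-0.54 to 0.43) and -0.05 for Cish (-0.27 to 0.18), and its limma adjusted p was 1.00 for all 8 members. No gene passed this test (0% of 10126), 112 genes had an unadjusted p under 0.05, and 0 members were among them. The Socs1 call in WT cells and its miss in Adcy10-/- cells, seen only without the replicate block, is thus not a shown difference between the genotypes. Both cytokine effects and both genotype differences share their libraries and are not independent of each other.

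**Figure D4:**
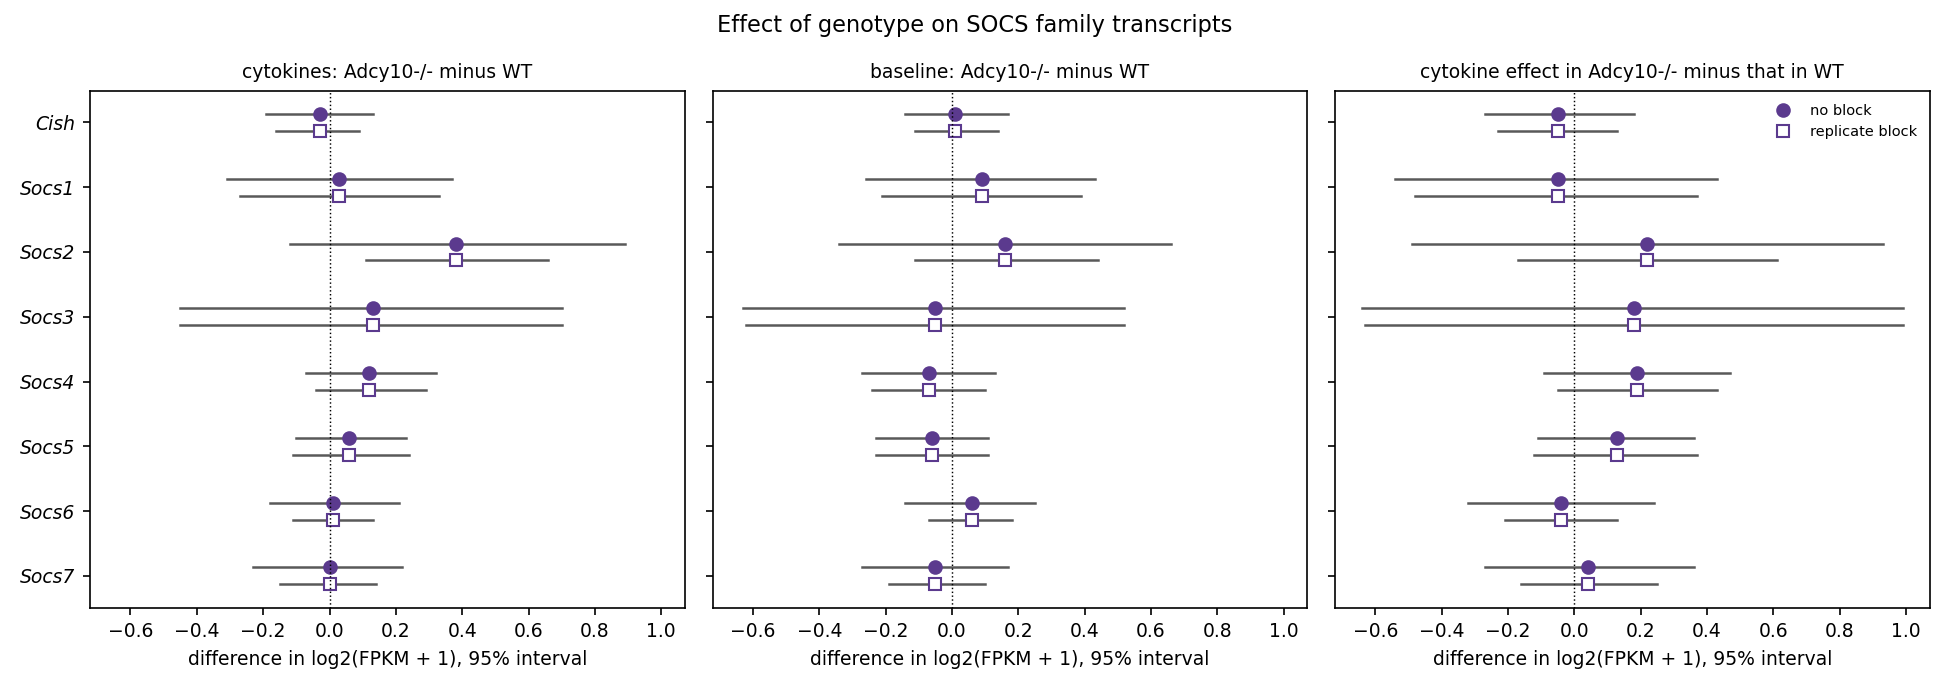
Difference in log2(FPKM + 1), Adcy10-/- minus WT, with cytokines (left) and at baseline (middle), and the cytokine effect in Adcy10-/- cells minus that in WT cells (right), with 95% limma intervals without and with the replicate block. Without the block every interval includes 0, and the widest are those of Socs3 and Socs2.

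The genes whose log2(FPKM + 1) followed the induced members most closely over the 12 libraries were searched among 6964 tested genes with a mean of at least 5 FPKM. For Socs3 these were Ddr1, Map4k4 and Cdkn2d (Pearson r = 0.98 each), and for Socs1 they were Sgk1, Mapk11 and Trib2 (r = 0.97 each). Ddr1, a collagen receptor kinase, averaged 27.4 FPKM in Adcy10-/- cytokine cells and 26.1 FPKM in WT cytokine cells, against 13.4 and 13.5 FPKM in Adcy10-/- and WT baseline cells. Sgk1, a salt-responsive kinase known for promoting Th17 cells, averaged 11.6 and 10.9 FPKM in Adcy10-/- and WT cytokine cells, against 4.35 and 3.57 FPKM in Adcy10-/- and WT baseline cells. At the other end were the apoptosis inhibitor Bcl2a1b and the cell cycle kinase Wee1 for Socs3, and Umps and Gypc for Socs1 (r = -0.96 each). Bcl2a1b has near-identical neighbours, so its own level is uncertain. Socs1 and Socs3 had r = 0.96 with each other, while Cish had r = 0.30 with Socs1 and 0.23 with Socs3. These correlations describe libraries that share media and replicate numbers, and they carry no test.

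The rest of the JAK-STAT pathway was read from 8 lists, of which up to 4 genes with the largest called cytokine difference are named. All differences are on the log2(FPKM + 1) scale. Several genes sit on more than 1 list, among them Il21, Pim1 and Myc. The counts below stand against 4.27% of all tested genes called in Adcy10-/- cells and 4.93% in WT cells. With the replicate block the shares are 10.7% in Adcy10-/- and 14.8% in WT cells, and without the libraries numbered 1 they are 2.19% and 3.74% in the same genotypes. Among 15 tested ligands, 2 rose and 0 fell in each genotype. With the block 3 rose and 3 fell in Adcy10-/- cells, and 4 rose and 2 fell in WT cells. Il21, which signals through STAT3 and amplifies Th17 differentiation, averaged 69.0 ± 5.82 FPKM in Adcy10-/- cytokine cells, against 5.98 ± 4.07 FPKM at baseline, and 69.5 ± 4.84 FPKM in WT cytokine cells, against 6.79 ± 5.78 FPKM at baseline. Its log2 difference was 3.53 in Adcy10-/- cells (limma adjusted p = 0.00235) and 3.43 in WT cells (0.00314). Il10, an anti-inflammatory STAT3 cytokine, rose by 1.02 and 1.10 on the log2 scale in Adcy10-/- and WT cells.

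Of 19 tested receptor genes, 2 rose and 2 fell in Adcy10-/- cells and 2 rose and 1 fell in WT cells. With the block 4 rose and 4 fell in Adcy10-/- cells, and 6 rose and 5 fell in WT cells. Leaving out the libraries numbered 1, 0 rose and 1 fell in Adcy10-/- cells, and 2 rose and 1 fell in WT cells. The receptor chains Il4ra and Il21r rose in both genotypes, Il4ra by 0.87 log2 units in each and Il21r by 0.80 in Adcy10-/- and 0.86 in WT cells. Il10rb fell by 0.32 in Adcy10-/- and 0.30 in WT cells. Il15ra fell by 0.53 in Adcy10-/- cells, and its difference of -0.40 in WT cells missed the threshold (limma adjusted p = 0.0925). Of the 11 kinases and STATs, 2 rose and 2 fell in Adcy10-/- cells and 2 rose and 1 fell in WT cells. Jak2, a kinase of the IL-6 and IL-23 receptors, rose by 0.60 in each genotype, and Jak3, the kinase of the common gamma chain, by 0.40 in Adcy10-/- and 0.38 in WT cells. Stat4, the IL-12 transducer, fell by 0.73 in Adcy10-/- and 0.61 in WT cells, and Stat6, the IL-4 transducer, fell by 0.19 in Adcy10-/- cells (limma adjusted p = 0.0461, against -0.12 and 0.196 in WT cells). Without the libraries numbered 1 none of the kinases and STATs rose and 1 fell in each genotype, and with the block 3 rose and 4 fell in each.

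The partners through which a SOCS box recruits its ubiquitin ligase showed no called difference. None of the 6 passed in either genotype or with the replicate block. The smallest p-values were those of Tceb2, the elongin subunit (log2 differences -0.01 in Adcy10-/- and 0.14 in WT cells), and the scaffold Cul2 (0.00 and -0.14 in the same genotypes). Of 13 other JAK-STAT inhibitors 0 passed in Adcy10-/- cells, and in WT cells Cblb, a ubiquitin ligase that raises the threshold of T cell activation, fell by 0.35 (limma adjusted p = 0.0487, against -0.28 and 0.127 in Adcy10-/- cells). With the block 2 of these inhibitors rose and 2 fell in each genotype. Of 13 tested proteins of 26 with a SOCS box outside the family, 2 rose and 0 fell in each genotype. Spsb1, which targets inducible nitric oxide synthase, rose by 1.07 in Adcy10-/- and 1.11 in WT cells. Asb2 rose by 0.43 in Adcy10-/- and 0.47 in WT cells. Without the libraries numbered 1 only 1 of the 13 rose in Adcy10-/- cells and 0 in WT cells, and with the block 2 rose in Adcy10-/- cells while 3 rose and 1 fell in WT cells.

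Of the lists of genes often tied to STAT3 and to STAT5, that of STAT3 held called increases only. That of STAT5 held few calls without the replicate block, and calls in both directions with it. Of 14 tested STAT3 targets, 6 rose and 0 fell in each genotype, and with the replicate block, which raises the calls over all genes as given above, 10 rose in Adcy10-/- cells and 11 in WT cells. There were 5 increases in Adcy10-/- cells and 7 in WT cells without the libraries numbered 1. The median log2 difference of the list was 0.599 in Adcy10-/- cells and 0.567 in WT cells, beside -0.0197 and -0.0126 over all tested genes in those genotypes. The transcription factor Maf, known for driving Il21 and Il10 in T cells, rose by 1.29 in Adcy10-/- and 1.18 in WT cells, and Fosl2, a subunit of AP-1, by 0.99 in each. The summed level of the 5 Th17 markers was 94.4 to 148 FPKM in Adcy10-/- cytokine cells and 64.2 to 156 FPKM in WT cytokine cells, against 16.7 to 84.4 FPKM in Adcy10-/- baseline cells and 16.4 to 83.4 FPKM in WT baseline cells. The WT groups overlapped in this sum. It depended on the replicate number, and the libraries numbered 3 were at 83.4 to 148 FPKM, those at baseline included.

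Of 14 STAT5 targets, 0 rose and 2 fell in Adcy10-/- cells and 1 rose and 2 fell in WT cells, with list medians of 0.143 in Adcy10-/- and 0.133 in WT cells. The survival kinase Pim2 fell by 1.04 in Adcy10-/- and 0.91 in WT cells and the cytokine Lta by 1.24 in Adcy10-/- and 1.32 in WT cells. Foxp3, the regulatory T cell factor, rose in WT cells (0.53, limma adjusted p = 0.0472) and missed the threshold in Adcy10-/- cells (0.38, adjusted p = 0.171). With the block 4 rose and 4 fell in Adcy10-/- cells and 5 rose and 4 fell in WT cells. When the libraries numbered 1 were left out, 0 rose and 2 fell in each genotype. No gene of any of the 8 lists was called between genotypes in either medium or in the interaction.

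**Figure D5:**
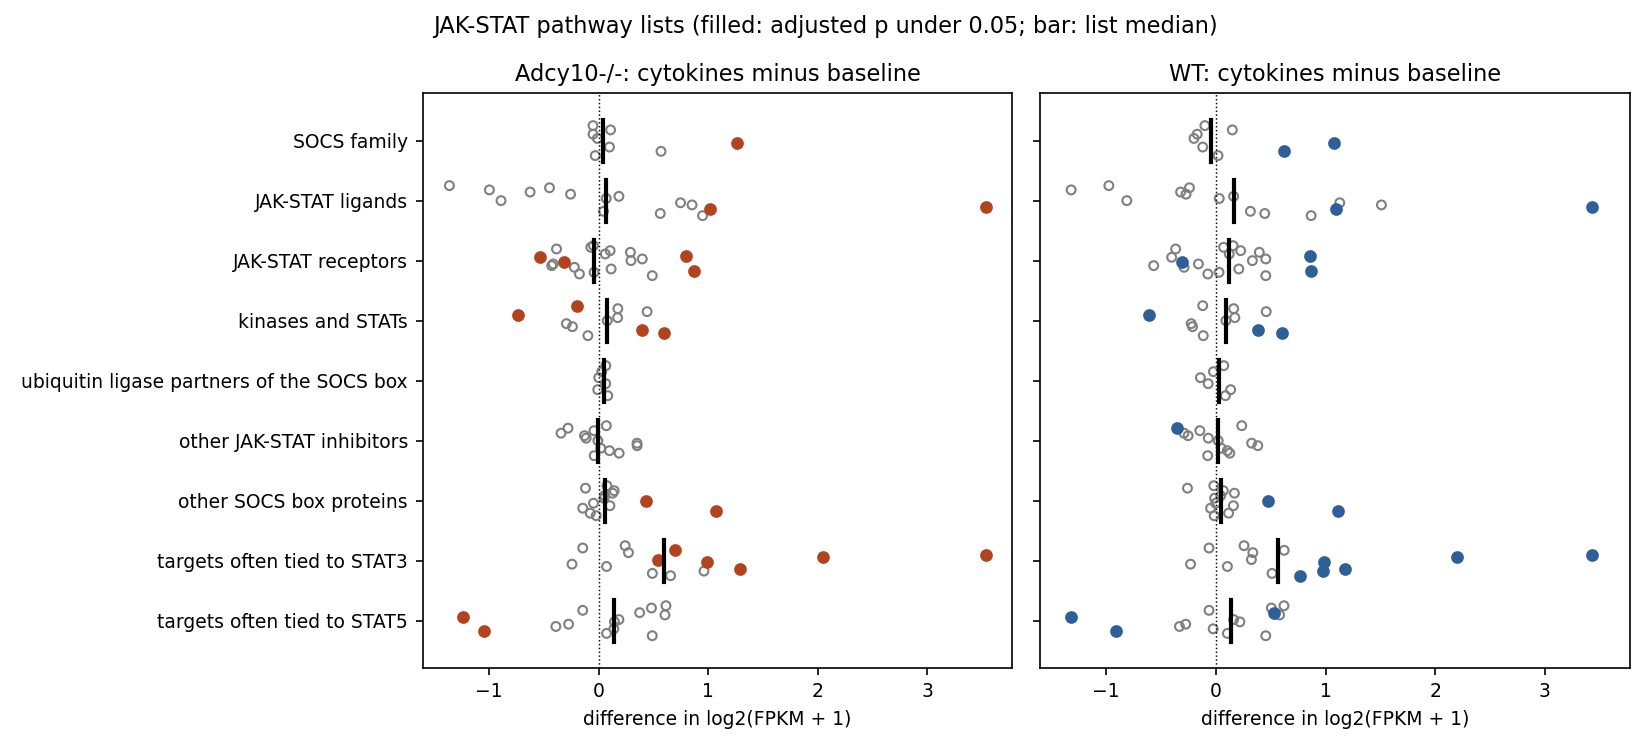
Difference in log2(FPKM + 1), cytokines minus baseline, for the tested genes of the SOCS family and 8 JAK-STAT lists (1 point a gene, vertical bar for the list's median) in Adcy10-/- cells (left) and WT cells (right), filled where the limma adjusted p is under 0.05. STAT3 targets lie mostly to the right of 0, and the 6 ubiquitin ligase partners close to 0.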

How the data were processed

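Per the submitters' processing notes, the authors aligned reads to mm9 with STAR 2.4.0f1, handled them with SAMtools 0.1.19 and used Cufflinks and HTSeq (versions not given). The deposited values are FPKM per gene name, scaled by the authors. Entries of 258 names listed several times were summed, leaving 23991 names of 24488 entries. FPKM carries no read count, so only the spread between libraries measures error. Strand use in counting is not given in the sources used here.

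Values were transformed as log2(FPKM + 1), which understates changes of genes near 1 FPKM. The 10126 genes at 1 FPKM or more in 3 or more libraries entered 1 limma fit (3.58.1, R 4.3.3) of 4 group means, moderated by empirical Bayes with a variance trend. There were 6 contrasts, with Benjamini-Hochberg adjustment over those genes and a 0.05 threshold. Intervals are 95% limma intervals. The script was tested on simulated data. Figures used Python 3.11.15, pandas 2.3.3, numpy 2.4.6 and matplotlib 3.10.9.

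Residuals correlated at 0.294 to 0.536 between libraries that share number and genotype (6 pairs), at 0.0736 to 0.523 between those that share only the number (12 pairs), and at -0.56 to 0.366 between different numbers (36 pairs). The numbers may therefore pair the 2 media, but the main fit, its intervals and the fits that leave out 1 library do not use this pairing. The fit with the number as a block stands beside a member's result where it changes a call, and beside the list counts. Alternatives were that block, other added constants, filters and scalings, no variance trend, 2-group fits, and leaving out each library. Leaving out the 4 libraries numbered 1 was chosen after seeing the data.

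The members, the JAK-STAT lists and the markers were chosen with earlier results of these data known. Named genes are the 8 members, up to 4 called genes per list with the largest cytokine difference (the 2 smallest p-values where none was called), and for each called member the 3 highest and 2 lowest correlations. Of these, 1 list and 1 gene are not reported here. Promoter windows are RefSeq's.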

Additional observations from a re-analysis of the deposited data

How the results depend on the processing

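Effects here are cytokines minus baseline in each genotype and Adcy10-/- minus WT in each medium, all by limma. Genes called in Adcy10-/- cells numbered 432, but 1086 with the replicate block, 1193 with the block within genotype and 219 without the 4 libraries numbered 1. In WT cells they numbered 499, but 1502 and 1574 with these blocks and 285 when only the 2 groups compared were fitted. Averaged over media the block called 3 genes. Without the libraries numbered 1 the averaged genotype effect called 2 genes, that with cytokines 2 and the interaction 1. Of the members, 2 were called in Adcy10-/- cells with either block, in the 2-group fit and without the libraries numbered 1, and 0 with no filter. In WT cells 0 were called with no filter, where the adjusted p was 0.0916 for Socs1 and 0.0875 for Socs3, and 1 (Socs3) with quantile normalization, no variance trend or the 2-group fit. The no-filter adjusted p of Socs3 in Adcy10-/- cells was 0.055. No member was called between genotypes under any setting, and the added constants 0.1 and 0.5 changed no member's call or direction.

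Sign changes affected only uncalled log2 differences. Median-ratio scaling gave 0.0039 for Socs4, and quantile normalization 0.0081 for Cish, in Adcy10-/- cells. Quantile normalization gave -0.0014 for Cish between genotypes at baseline. Without the libraries numbered 1, Cish was at -0.0464 in WT cells and 0.0499 between genotypes with cytokines, and Socs3 was at 0.1842 between genotypes at baseline and -0.0573 in the interaction. The genotype values of Socs4 to Socs7, which are only plotted, also changed sign under some settings. The cause was not tested.

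With 1 library left out at a time, genes called ranged from 202 to 466 in Adcy10-/- cells and from 164 to 536 in WT cells, members called from 0 to 2 in each, and genes called in the interaction and in the genotype effects with cytokines and averaged over media from 0 to 1, with 0 at baseline in each fit. Ranges that crossed 0 in Adcy10-/- cells were Cish -0.0499 to 0.006, Socs2 -0.11 to 0.28, Socs4 -0.0491 to 0.0218 and Socs7 -0.14 to 0.0159. In WT cells they were Cish -0.0679 to 0.0885 and Socs2 -0.29 to 0.0357. Between genotypes with cytokines they were Cish -0.10 to 0.0525, Socs1 -0.0944 to 0.24 and Socs3 -0.12 to 0.37. At baseline they were Cish -0.0215 to 0.0361, Socs2 -0.0149 to 0.37 and Socs3 -0.22 to 0.16. In the interaction they were Cish -0.12 to 0.038, Socs1 -0.18 to 0.15 and Socs3 -0.065 to 0.42.

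With 3 libraries a group and unknown depth, small differences in Socs4 to Socs7, at about 5 FPKM or less, missed the adjusted threshold. In WT cells the unadjusted p was 0.0452 for Socs4 and 0.0459 for Socs5 (limma). A filter at 5 FPKM leaves no value for Socs5.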
